A study of Mus musculus with 6 samples.

Results

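The 9 genes described here encode components and regulators of the complement system, *C1ra*, *C1s1*, *C3*, *C4b*, *Cfb*, *Hc*, *C7*, *Serping1* and *Cd55*, among 27179 genes counted by bulk RNA-seq in mammary fibroblasts. They were chosen with their measured levels in CD34hi and CD34lo fibroblasts known, so their differences between these populations are given as a description, with no test. The samples were Lin–CD24–Pdgfrα+ cells, sorted by surface CD34 into CD34hi and CD34lo populations, from the mammary glands of FVB/N mice (FVB/NJ in the study's methods) that were 6 weeks of age, which is puberty. Lin– cells are those without the endothelial, leukocyte and erythroid surface markers CD31, CD45 and TER-119. The labels name no treatment and no engineered allele in either group. Both populations came from each of 3 pools of 2 mice, which gave 3 libraries per population and 6 in all. FVB/N mice are also known to carry a loss-of-function allele of *Hc* and to lack circulating C5, so *Hc* counts in this strain report transcript and not functional protein.

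Complement is a cascade of plasma and cell surface proteins that tags targets for removal and can open pores in membranes. The classical, lectin and alternative routes meet at the cleavage of C3, after which C5 is cleaved and the terminal components assemble. Liver is the main source of the plasma proteins, but fibroblasts of many tissues also transcribe several of the genes, together with regulators that protect host cells.

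The libraries held between 28764779 and 52402410 counts on genes, and levels are given as CPM, counts per 1e+06 with TMM-scaled library sizes. A count of 3, used as a floor that covers counting error only, equals between 0.0553 and 0.108 CPM. *Cd34*, the gene of the sorted protein, was between 2490 and 2639 CPM in the CD34hi libraries and between 476 and 793 CPM in the CD34lo libraries. The 6 fibroblast markers *Pdgfra*, *Col1a1*, *Col1a2*, *Dcn*, *Lum* and *Pdpn* summed to between 28590 and 36049 CPM in CD34hi and between 48386 and 54286 CPM in CD34lo fibroblasts. Of these, *Pdpn* was higher in CD34hi (186 against 50.5 CPM), *Dcn* did not pass the threshold and the other 4 were higher in CD34lo. The 8 leukocyte and macrophage markers summed to at most 11.0 CPM in any library. In bulk samples, fewer cells of a type and less RNA per cell cannot be told apart.

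The summed level of the 9 genes was 15192, 16767 and 21181 CPM in CD34hi pools 1, 2 and 3, and 6244, 10713 and 7506 CPM in the matching CD34lo pools. They took between 1.52% and 2.12% of a CD34hi library and between 0.624% and 1.07% of a CD34lo library, and these ranges did not overlap. *C3* alone gave between 45.5% and 52.8% of the sum in CD34hi and between 25.4% and 30.4% in CD34lo libraries. *Serping1* gave between 21.4% and 21.98% in CD34hi and between 31.4% and 33.4% in CD34lo libraries, so that it was the larger contributor in CD34lo.

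**Figure D1:**
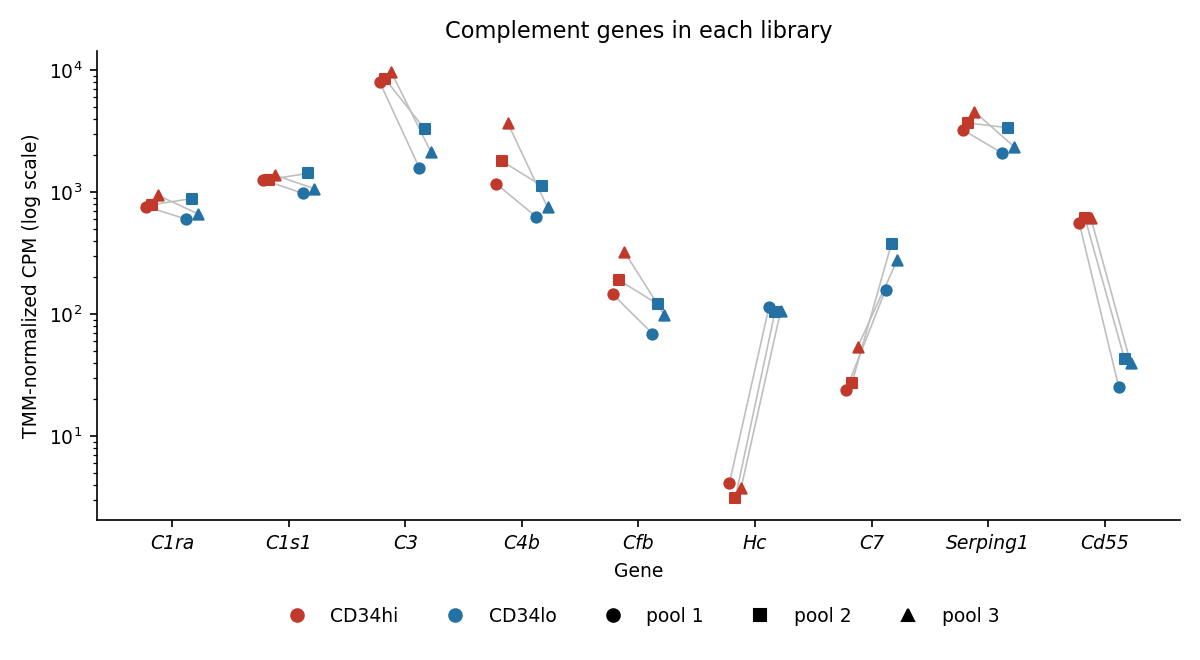
TMM-normalized CPM (log axis) of the 9 genes in each of the 6 libraries, with CD34hi in red, CD34lo in blue, a marker shape for each mouse pool and a line joining the populations of the same pool. The CD34hi and CD34lo libraries are apart for *C3*, *C4b*, *Cfb*, *Hc*, *C7* and *Cd55*, and overlap for *C1ra*, *C1s1* and *Serping1*.

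*C1ra* and *C1s1* encode the serine proteases of the C1 complex, which C1q carries to its target in the classical route. *C1ra* (gene 50909, chr6:124512621-124523440, plus strand) was at 759, 788 and 941 CPM in CD34hi pools 1 to 3 and at 602, 885 and 665 CPM in the CD34lo pools. *C1s1* (gene 50908, chr6:124530344-124542359, minus strand) was at 1265, 1268 and 1380 CPM in CD34hi and at 977, 1428 and 1067 CPM in CD34lo fibroblasts. The populations overlapped for both genes, because CD34lo pool 2 was above CD34hi pool 2, by 0.17 on the log2 scale for each gene, while pools 1 and 3 were higher in CD34hi. The fitted log2 fold change, given throughout as CD34hi against CD34lo, was 0.21 (standard error 0.18) for *C1ra* and 0.17 (standard error 0.17) for *C1s1*. Without pool 2 these values were 0.43 and 0.37, and without pool 3 they were 0.06 and 0.08. Both genes have a near-identical copy whose reads the counting could have split, and the copies were lower in level. *C1rb* was at 183 ± 28.7 CPM (SD, n = 3) in CD34hi and 158 ± 39.7 CPM in CD34lo fibroblasts. *C1s2* was at 87.5 ± 11.0 and 78.1 ± 19.9 CPM. With the counts of each pair added together, the log2 fold change stayed at 0.21 for *C1ra* and 0.17 for *C1s1*.

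C1q itself, the recognition subunit that macrophages make, was low. *C1qa* had 2, 6 and 9 counts in CD34hi pools 1 to 3 and 48, 2 and 50 counts in the CD34lo pools, at most 1.61 CPM, and *C1qb* and *C1qc* had at most 0.258 CPM. All 3 were removed as low in counts, in libraries where *C1ra* was never below 602 CPM.

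*C3* encodes the protein on which all routes converge. It was at 8019, 8404 and 9636 CPM in CD34hi pools 1 to 3 and at 1583, 3260 and 2136 CPM in the CD34lo pools. The lowest CD34hi library was therefore well above the highest CD34lo library. The means were 8687 ± 845 CPM (SD, n = 3) in CD34hi and 2326 ± 854 CPM in CD34lo fibroblasts, 3.73-fold higher in CD34hi, with a log2 fold change of 1.90 (standard error 0.27). The difference was 2.34, 1.37 and 2.17 on the log2 scale in pools 1, 2 and 3. The gene (12266) lies at chr17:57203973-57228136 on the minus strand.

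*C4b* encodes C4, which the classical and lectin routes cleave to build the C3 convertase. It was at 1170, 1791 and 3657 CPM in CD34hi pools 1 to 3 and at 631, 1129 and 751 CPM in the CD34lo pools. The populations did not overlap, but only by a narrow margin between CD34hi pool 1 and CD34lo pool 2, and CD34hi pool 3 stood far above the other CD34hi libraries. The means were 2206 ± 1294 CPM in CD34hi and 837 ± 260 CPM in CD34lo fibroblasts (SD, n = 3), with a log2 fold change of 1.40 (standard error 0.40). Without pool 3 the log2 fold change was 0.75, and without CD34hi pool 3 alone it was 0.83. The gene (12268, chr17:34728380-34743897, minus strand) has a near-identical copy, *C4a*, and 35.2% of the 50-base windows of its longest coding transcript recur exactly in *C4a*. *C4a* was at 77.0, 117 and 255 CPM in CD34hi and at 41.5, 82.7 and 55.0 CPM in CD34lo fibroblasts, so that CD34hi pool 3 was again the highest library. With the pair added together the log2 fold change was 1.39.

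*Cfb* encodes factor B, which gives the alternative route convertase its protease. It was at 145, 191 and 323 CPM in CD34hi pools 1 to 3 and at 69.3, 120 and 98.8 CPM in the CD34lo pools. The CD34hi libraries were all above the CD34lo libraries, with CD34hi pool 3 the highest. The means were 220 ± 92.5 and 96.0 ± 25.4 CPM (SD, n = 3), with a log2 fold change of 1.20 (standard error 0.30), and of 0.83 without pool 3. The gene (14962, chr17:34856374-34862514, minus strand) lies between *Nelfe*, 1 base away, and its paralog *C2*, 87 bases away on the same strand, and the library kit does not mark strand. *C2* encodes the protease that pairs with C4 and has the same role as factor B in the other convertase. *C2* was at 134, 149 and 320 CPM in CD34hi and at 245, 388 and 274 CPM in CD34lo fibroblasts, so the populations overlapped through CD34hi pool 3. The log2 fold change of *C2* was -0.59 with a standard error of 0.33 (adjusted p = 0.198, edgeR), and without CD34hi pool 3 it was -1.09 with an adjusted p of 0.00567. It was -1.16 without pool 3 (adjusted p = 0.0164) and -0.19 without pool 2 (adjusted p = 0.762). Leaving out CD34hi pool 1 gave -0.34 and leaving out CD34lo pool 2 gave -0.37 for *C2* (adjusted p = 0.490 and 0.464), and the mouse pool as a block gave -0.68 in edgeR (adjusted p = 0.0575) and -0.69 in limma-voom (adjusted p = 0.0357).

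*Hc* encodes C5, whose cleavage starts the assembly of the membrane attack complex. It was at 4.14, 3.09 and 3.75 CPM in CD34hi pools 1 to 3 and at 115, 104 and 107 CPM in the CD34lo pools. The CD34lo libraries were close to each other and all far above the CD34hi libraries. The means were 3.66 ± 0.529 CPM in CD34hi and 109 ± 5.72 CPM in CD34lo fibroblasts (SD, n = 3), 29.7-fold higher in CD34lo. The log2 fold change was -4.89 (standard error 0.15), with -4.78, -5.05 and -4.81 in pools 1, 2 and 3. In counts, the CD34hi values rest on 185, 112 and 170 counts and the CD34lo values on 6236, 2892 and 3322. The gene (15139) lies at chr2:34983331-35061441 on the minus strand.

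*C7* encodes a later component, which anchors the growing complex in the membrane. It was at 23.9, 27.1 and 53.7 CPM in CD34hi pools 1 to 3 and at 159, 379 and 278 CPM in the CD34lo pools. All CD34lo libraries were above all CD34hi libraries, and CD34hi pool 3 was the highest of its population here as well. The means were 34.9 ± 16.4 and 272 ± 110 CPM (SD, n = 3), 7.79-fold higher in CD34lo, with a log2 fold change of -2.96 (standard error 0.39). The gene (109828) lies at chr15:4988762-5063773 on the minus strand.

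*Serping1* encodes the C1 inhibitor, a secreted serpin that blocks C1r and C1s. It was at 3247, 3685 and 4576 CPM in CD34hi pools 1 to 3 and at 2083, 3366 and 2363 CPM in the CD34lo pools. CD34hi was higher within each pool, by 0.64, 0.13 and 0.95 on the log2 scale, but CD34lo pool 2 was above CD34hi pool 1. The means were 3836 ± 677 and 2604 ± 675 CPM (SD, n = 3), with a log2 fold change of 0.56 (standard error 0.22), and of 0.35 without pool 3. The gene (12258) lies at chr2:84765360-84775429 on the minus strand.

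*Cd55* encodes decay-accelerating factor, a membrane protein that takes apart the C3 and C5 convertases on host cells. It was at 560, 609 and 611 CPM in CD34hi pools 1 to 3 and at 25.05, 42.5 and 39.9 CPM in the CD34lo pools. Every CD34hi library was far above every CD34lo library. The means were 593 ± 29.3 and 35.8 ± 9.41 CPM (SD, n = 3), 16.6-fold higher in CD34hi, with a log2 fold change of 4.05 (standard error 0.22). The gene (13136) lies at chr1:130439029-130462740 on the minus strand. Its copy *Cd55b*, with which it shares 13.3% of its 50-base windows, was at 7.47, 9.24 and 10.8 CPM in CD34hi and at 0.148, 0.863 and 0.386 CPM in CD34lo fibroblasts. With the pair added together the log2 fold change was 4.06.

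**Figure D2:**
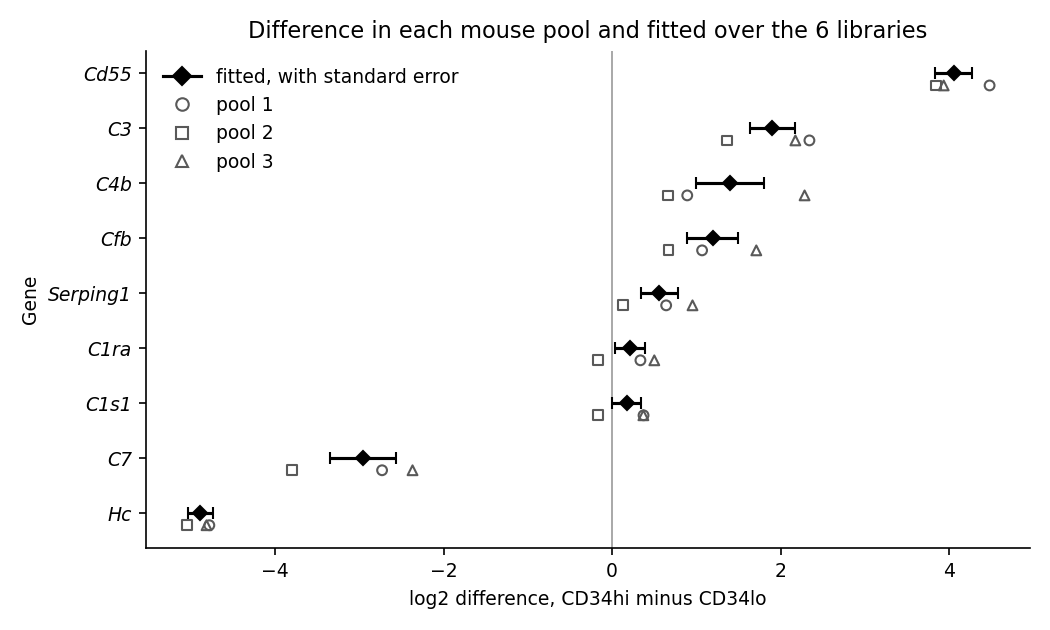
Log2 difference of CD34hi minus CD34lo for each gene, as the value fitted over the 6 libraries (diamonds, bars are the standard error) and within each mouse pool (open symbols). *Hc* and *C7* lie below 0 in every pool, *Cd55*, *C3*, *C4b*, *Cfb* and *Serping1* lie above 0 in every pool, and pool 2 lies below 0 for *C1ra* and *C1s1*.

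For 6 of the 9 genes the 3 CD34hi and 3 CD34lo libraries did not overlap, beside 50.1% of the 15219 genes tested. The median log2 fold change was 0.56 over the 9 genes and -0.01 over the genes tested. As the genes were selected on this contrast, nothing is read from either value.

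Levels were compared between genes per kb of the length in the deposited table, as the mean of each population. In CD34hi fibroblasts the order was *Serping1* with 2108 CPM per kb, *C3* with 1692, *C1s1* with 437, *C4b* with 409, *C1ra* with 300.2, *Cd55* with 235, *Cfb* with 79.99, *C7* with 12.9 and *Hc* with 0.672. Neighbours overlapped between *Serping1* and *C3*, between *C1s1* and *C4b* and between *C4b* and *C1ra*, and the other neighbours were apart in all libraries. In CD34lo fibroblasts *Serping1* was again first with 1431 CPM per kb, followed by *C3* with 453, *C1s1* with 388, *C1ra* with 259.7, *C4b* with 155, *C7* with 100.3, *Cfb* with 34.9, *Hc* with 19.9 and *Cd55* with 14.2. Here the libraries overlapped between *C3* and *C1s1* and between *C4b* and *C7*. *Cd55* moved from the sixth place in CD34hi to the last in CD34lo fibroblasts, where it was below *Hc* and *C7*.

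Libraries of the same population also differed, which bears on several of these values. Each library was set against the mean of the other libraries of its population on the log2 CPM scale. All 9 genes were higher in CD34hi pool 3, with a median of 0.28, whereas the median was -0.01 over the 12951 genes with a mean of at least 1 CPM. *C4b* was 1.34 higher there, *C7* 1.08 and *Cfb* 0.96, values that 0.873%, 1.61% and 2.27% of the genes reached. *Hc* and *Cd55* were each only 0.07 higher. In CD34lo pool 2, 8 of the 9 genes were above the other CD34lo libraries, with a median of 0.54 beside 0.01 over the 12951 genes. *C7* and *C3* led with 0.85 and 0.83. In CD34lo pool 1, 8 of the 9 genes were below the others, with a median of -0.55 beside -0.0048. *Hc* was the exception in both of these libraries. In CD34hi pool 1 only 1 of the 9 genes was above the other CD34hi libraries, and in CD34hi pool 2 also 1, with medians of -0.18 and -0.10.

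**Figure D3:**
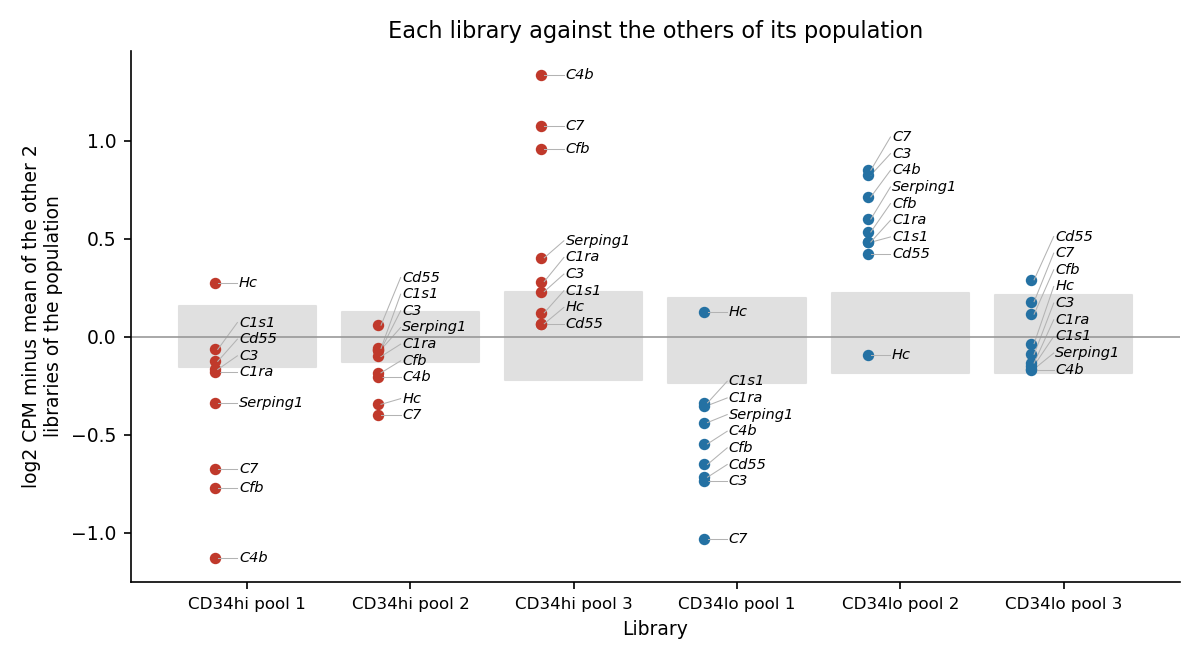
Log2 CPM of each gene in a library minus the mean of the other libraries of its population, with CD34hi in red and CD34lo in blue. The grey band spans the interquartile range of the genes with a mean of at least 1 CPM; 7, 4 and 6 of the 9 genes lie outside it in CD34hi pools 1, 2 and 3, and 8, 8 and 1 in CD34lo pools 1, 2 and 3.

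The sequence before the start site is shown for the members with the largest differences in either direction that have an entry in the promoter table of RefSeq (GRCm38.p6), namely *C3* and *Cd55*, higher in CD34hi, and *Hc* and *C7*, higher in CD34lo. Each line gives the 250 bases before the annotated start of transcription, 5′ to 3′ in the direction of the gene, from chr17:57228137-57228386 for *C3*, chr1:130462745-130462994 for *Cd55*, chr2:35061413-35061662 for *Hc* and chr15:5063774-5064023 for *C7*, all on the minus strand. Capitals mark matches to the motifs named in the next paragraph. For *Hc* the start in the promoter table differs from the end of the gene as counted (chr2:35061441). The last bases of its line, chr2:35061413-35061441, therefore lie within the counted gene.
C3: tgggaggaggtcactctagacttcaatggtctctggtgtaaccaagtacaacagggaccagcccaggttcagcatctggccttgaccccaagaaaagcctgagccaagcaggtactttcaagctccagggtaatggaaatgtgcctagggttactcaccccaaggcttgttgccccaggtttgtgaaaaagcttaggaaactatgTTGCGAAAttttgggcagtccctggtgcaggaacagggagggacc
Cd55: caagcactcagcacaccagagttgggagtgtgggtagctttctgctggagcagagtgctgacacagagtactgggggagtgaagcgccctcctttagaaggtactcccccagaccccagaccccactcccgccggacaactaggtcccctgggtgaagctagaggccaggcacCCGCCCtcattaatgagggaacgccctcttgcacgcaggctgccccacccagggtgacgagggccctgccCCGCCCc
Hc: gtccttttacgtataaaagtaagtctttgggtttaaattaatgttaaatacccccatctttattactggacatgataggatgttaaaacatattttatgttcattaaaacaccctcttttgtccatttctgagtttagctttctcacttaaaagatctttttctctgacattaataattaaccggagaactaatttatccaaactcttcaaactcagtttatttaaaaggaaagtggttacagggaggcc
C7: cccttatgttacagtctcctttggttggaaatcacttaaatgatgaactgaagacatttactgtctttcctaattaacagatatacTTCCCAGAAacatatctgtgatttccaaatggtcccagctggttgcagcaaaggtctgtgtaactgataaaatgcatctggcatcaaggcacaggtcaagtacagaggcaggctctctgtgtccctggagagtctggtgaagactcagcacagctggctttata

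The windows searched for motifs ran from 250 bases before to 50 bases after the start, on both strands, for 6 of the 9 genes and for 32851 promoters in all. *C1s1* has a pair of start sites, so that there were 7 member windows. The windows of *C4b*, *Cfb* and *Serping1* were not analysed here. A C/EBP core (TTGCNNAA), which 10.8% of all windows hold, began 45 bases before the start of *C3*, and it was also found in *C1ra* and in 1 of the 2 *C1s1* windows. A GC box (GGGCGG, in 35.7% of all windows) occurred in *Cd55* at 77 and 7 bases before the start, on the opposite strand. A GAS element (TTCNNNGAA, in 8.30%) began 164 bases before the start of *C7* and was also found in *C1ra*, and the core of an interferon-stimulated element (GAAANNGAA, in 8.56%) began 8 bases after the start of *C7*. The *Hc* window held none of the motifs searched. The AP-1 motif (TGANTCA), the Gli core (TGGGTGGTC) and the NF-kB motif occurred in 7.81%, 0.253% and 4.51% of all windows and in 0 of the 7 member windows. The GC content ranged from 34.7% in *Hc* to 63.3% in *Cd55*. A match to these letters is not a binding site, and binding was not measured.

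The rest of the pathway was read from a list of complement genes grouped by textbook role, 47 of which are in the table beside the 9 members. Of these, 25 passed the filter on low counts and were tested. By the quasi-likelihood test of edgeR, adjusted over all 15219 genes by the method of Benjamini and Hochberg at a threshold of 0.05, 14 of the 25 (56.0%) differed between CD34hi and CD34lo fibroblasts, beside 35.6% of all genes tested. Of the 14, 4 were higher in CD34hi, beside 16.9% of all genes, and 10 (40.0%) were higher in CD34lo, beside 18.7% of all genes. The median log2 fold change of the 25 genes was -0.14. Where every library had to hold 10 counts or more, fewer complement genes were tested and 9 passed the threshold, 7 of them higher in CD34lo. Beside these, 4748 of all 13469 genes tested under that filter passed, 2481 of them higher in CD34lo. The filter removed *Colec10*, *Colec11*, *Cpn2*, *Cd55b* and *Itgb2*, each with a library under 10 counts in the population where it was lower. The main filter took in these genes through the population where they were high, which favoured their calls.

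Of the 10 fluid-phase regulators in the table beside *Serping1*, 6 were tested and 5 of these were higher in CD34lo fibroblasts, beside 18.7% of all genes. *Cfi*, the protease that inactivates C3b and C4b, had a log2 fold change of -3.01 (adjusted p = 0.000255, edgeR) from 0.773 CPM in CD34hi and 6.32 CPM in CD34lo fibroblasts. *Vtn*, or vitronectin, which keeps the terminal complex out of membranes, rose from 9.19 ± 0.75 CPM in CD34hi to 55.7 ± 13.6 CPM in CD34lo fibroblasts (SD, n = 3), a log2 fold change of -2.60 (adjusted p = 1.82e-05, edgeR). *Cfhr2* had a log2 fold change of -1.55. *Cpn2*, the carrier subunit of carboxypeptidase N, rested on 1 count over the CD34hi libraries and on 14, 10 and 16 counts in the CD34lo libraries, and was named after its values were seen. *Cpn2* passed the filter on low counts only through CD34lo, which favoured its call, so nothing is read from its place among the 5. *Clu*, or clusterin, another inhibitor of the terminal complex, had a log2 fold change of -0.52 (adjusted p = 0.0835, edgeR) and passed the threshold once the mouse pool was a block (-0.48, adjusted p = 0.0408). Without CD34lo pool 2 the value for *Clu* was -0.23 (adjusted p = 0.226), without both libraries of pool 2 it was also -0.23 (0.421), and without CD34lo pool 3 it was -0.67 (0.0399). *Serping1* shares this role and had a log2 fold change of 0.56.

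Of the 7 membrane regulators tested beside *Cd55*, 2 were higher in CD34hi and 2 in CD34lo, beside 16.9% and 18.7% of all genes. *Cd59a*, whose product stops the last step of the pore, was at 2.01, 2.24 and 2.62 CPM in CD34hi and at 15.3, 12.2 and 14.4 CPM in CD34lo fibroblasts. All CD34lo libraries were above all CD34hi libraries, with a log2 fold change of -2.61 and a standard error of 0.18 (adjusted p = 1.49e-05, edgeR). *Cd59b*, its copy, had at most 1.19 CPM and a log2 fold change of -1.17 (adjusted p = 0.0340, edgeR), and was named after its values were seen. *Cd59b* did not pass without the filter on low counts (adjusted p = 0.0549) or in 7 of the 9 fits without a pool or library (0.0621 to 0.164). *Cd55b* had a log2 fold change of 4.43 (adjusted p = 0.000170, edgeR), in the direction of *Cd55*, and of 5.21 without CD34lo pool 2 or without both libraries of pool 2. With 8, 24 and 12 counts in the CD34lo libraries, *Cd55b* passed the filter on low counts through CD34hi. *Cr1l*, or Crry, the rodent inhibitor of the C3 convertase, was at 67.2 ± 3.14 CPM in CD34hi and 51.9 ± 5.23 CPM in CD34lo fibroblasts (SD, n = 3), a log2 fold change of 0.37 (adjusted p = 0.0318, edgeR) that did not pass with upper-quartile normalization (adjusted p = 0.0575) or without 7 of the 9 pools and single libraries left out in turn. *Csmd1* was at between 4.87 and 12.4 CPM, and its log2 fold change of -0.14 missed the threshold.

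Of the 8 lectin route genes in the table, 3 were tested and all 3 passed the threshold, beside 35.6% of all genes. *Colec10* passed the filter on low counts only through CD34hi, where it was higher. *Colec11* held 9, 13 and 20 counts in CD34hi, and passed the filter through CD34lo, where it was higher. The filter favoured both calls, so nothing is read from the 3 of 3. *Colec10*, a collectin that recognizes sugars, was at 4.72, 4.25 and 6.77 CPM in CD34hi and at 0, 0.216 and 0.225 CPM in CD34lo pools 1 to 3, with a log2 fold change of 5.38 (adjusted p = 0.000346, edgeR). The CD34lo values rest on 0, 6 and 7 counts, and the log2 fold change of *Colec10* was 4.58 without CD34lo pool 1, 4.65 without pool 1, 5.99 without pool 2, 6.01 without CD34lo pool 3 and 6.34 in limma-voom. *Colec11*, its relative, was higher in CD34lo, with 0.201, 0.359 and 0.441 CPM in CD34hi and 2.84, 4.60 and 2.96 CPM in CD34lo fibroblasts, a log2 fold change of -3.36 (adjusted p = 0.000193, edgeR). The fitted values of *Colec10* and *Colec11* had opposite signs, which is given as a description only. *Masp1*, the protease bound to such collectins, had a log2 fold change of -2.72 (adjusted p = 0.000569, edgeR), from 1.22 CPM in CD34hi to 8.07 CPM in CD34lo fibroblasts.

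*C4a* passed the threshold with a log2 fold change of 1.33 (adjusted p = 0.0373, edgeR), but not without CD34hi pool 3 (0.71, adjusted p = 0.0972). It also missed it without pool 3, without CD34lo pool 1 or 3, and with DESeq2, at adjusted p-values of 0.225, 0.112, 0.112 and 0.0674. *C1rb* (0.22, adjusted p = 0.424) and *C1s2* (0.17, adjusted p = 0.525) did not pass, and on leaving out a pool or library their log2 fold changes ran from 0.045 (without pool 3) to 0.50 (without pool 2) and from 0.017 to 0.42, in the same fits. *Cfp*, the gene of properdin, which steadies the alternative convertase, was at between 5.25 and 6.22 CPM with a log2 fold change of -0.07 (adjusted p = 0.761, edgeR). *C6*, the terminal component between C5 and C7, was at 1.86, 2.48 and 9.55 CPM in CD34hi and at 1.14, 1.51 and 1.80 CPM in CD34lo fibroblasts and is named because of these values, as CD34hi pool 3 was 2.13 higher on the log2 scale than its fellow libraries. Its log2 fold change was 1.66 (adjusted p = 0.0573, edgeR), and 1.31 with an adjusted p of 0.0153 once the mouse pool was a block. It also passed in limma-voom with the block, with DESeq2, without the filter on low counts and without CD34hi pool 1 or 2 (adjusted p = 0.00623, 0.00787, 0.0325, 0.0179 and 0.0408), but not in limma-voom without the block (0.15). Without CD34hi pool 3 it was 0.56 (adjusted p = 0.225), and without pool 3 it was 0.72 (adjusted p = 0.148).

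**Figure D4:**
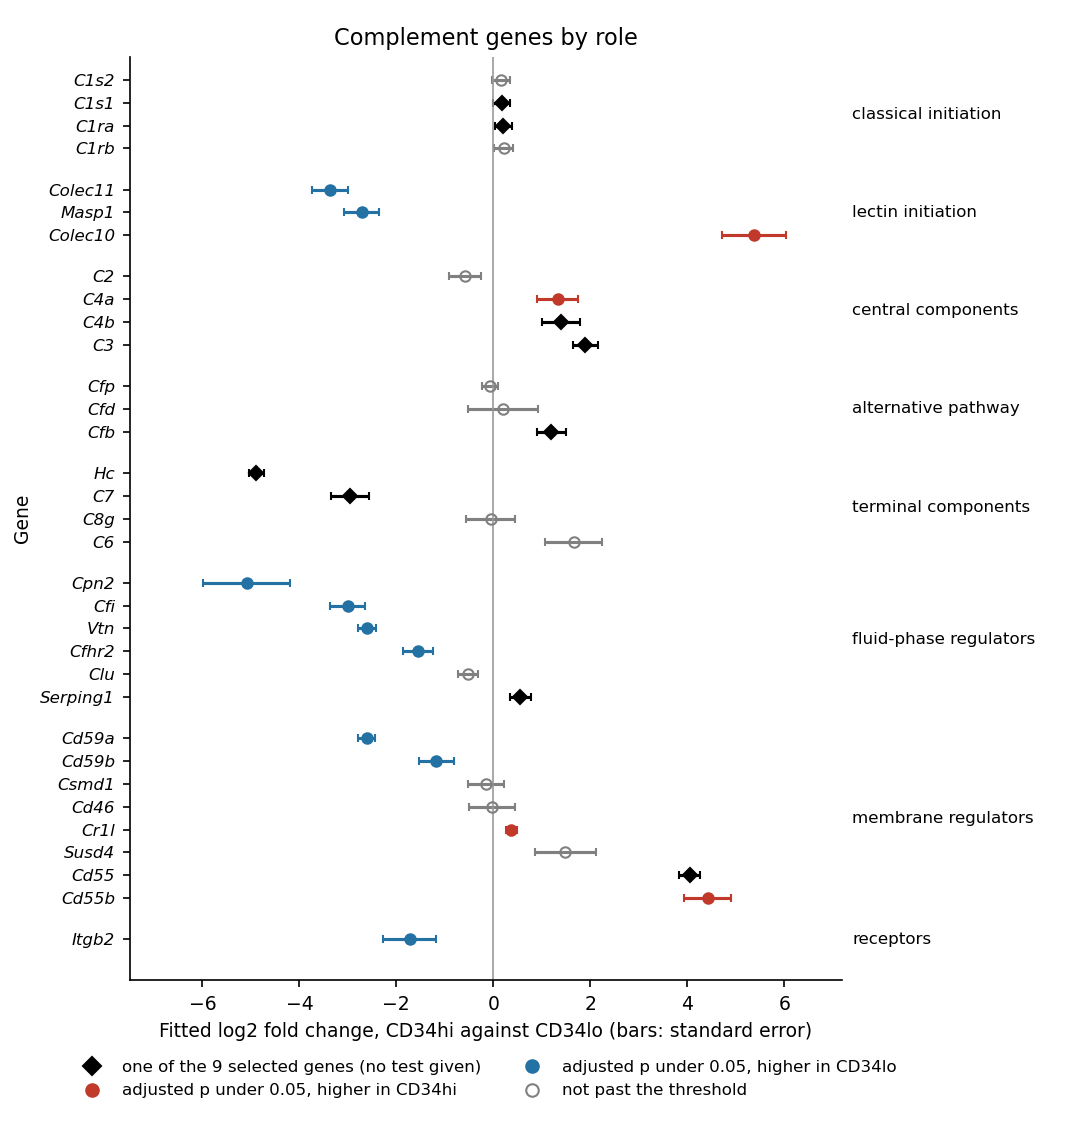
Fitted log2 fold change of CD34hi against CD34lo (bars are the standard error) for the 9 genes (black diamonds, no test) and 24 of the 25 other complement genes tested, grouped by role. Filled circles passed an adjusted p of 0.05, red for the 4 genes higher in CD34hi and blue for 9 of the 10 higher in CD34lo, and open circles did not pass.

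The 22 genes removed as low in counts had at most 1.61 CPM in any library, and 5 of them had no count at all. They included the terminal genes *C8a*, *C8b* and *C9*, and 7 of the 8 receptor genes, among them *C3ar1* and *C5ar1*, the receptors of the fragments C3a and C5a, with at most 0.289 CPM. The receptor subunit *Itgb2* was the exception, at no more than 0.503 CPM, and was named after its values were seen. Its log2 fold change was -1.72 (adjusted p = 0.0381, edgeR), from 6, 6 and 3 counts in CD34hi and 24, 14 and 8 in CD34lo. It passed the filter on low counts only through CD34lo, which favoured the call, so nothing is read from it. *Itgb2* did not pass with DESeq2 (adjusted p = 0.0641), without the filter on low counts (0.0849) or in 6 of the 7 fits without a pool or library in which it could be tested (0.0701 to 0.133).

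Markers of other cells moved between the populations too. All 5 pericyte and smooth muscle markers were higher in CD34lo, where they summed to between 85.1 and 114 CPM against 10.3 to 12.9 CPM in CD34hi, the direction of *Hc* and *C7*, and *Rgs5* was at 2.19 and 0.801 CPM. Of the 5 endothelial markers, which summed to between 533 and 691 CPM in CD34hi and between 47.4 and 79.1 CPM in CD34lo, *Tek* and *Kdr* were higher in CD34hi, the direction of *C3* and *Cd55*, while *Pecam1*, *Cdh5* and *Emcn* were higher in CD34lo. The 4 keratinocyte markers summed to between 14.6 and 20.1 CPM in CD34hi and between 3.85 and 7.44 CPM in CD34lo, with *Krt10* at 8.77 and 5.18 CPM, *Krtdap* at 8.56 and 0.113 CPM and *Krt1* at 0 in all libraries. The 4 Schwann cell markers summed to between 6.75 and 7.03 CPM in CD34hi and between 15.5 and 20.9 CPM in CD34lo. The leukocyte and macrophage markers summed to between 6.86 and 8.78 CPM in CD34hi and between 9.74 and 11.0 CPM in CD34lo. Of the 6 tested, only *Lyz2* passed the threshold, higher in CD34lo (log2 fold change -2.05, adjusted p = 0.00997, edgeR). *Cd14* had the other sign without passing (0.16). *C1qa* had 48, 2 and 50 counts in CD34lo pools 1 to 3, where the marker sums were 10.4, 11.0 and 9.74 CPM. The 5 adipocyte markers summed to at most 1.81 CPM, with *Plin1* higher in CD34lo (-2.82, adjusted p = 0.00655). The 3 erythroid markers summed to between 1.08 and 1.32 CPM in CD34hi and between 2.38 and 3.19 CPM in CD34lo, with *Hba-a1* and *Hbb-bs* higher there. The part of these cells in the differences of the complement genes was not tested.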

How the data were processed

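Bulk RNA-seq libraries were made by the authors with a TruSeq RNA v2 kit, and the reads were aligned to GRCm38/mm10 and assigned to genes with Rsubread 2.2.6. Raw counts per gene were deposited, with the gene length. The strand setting and annotation used for counting are not given in the sources used here. The columns not used numbered 0. Symbols were found for 25275 of 27179 gene IDs.

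The analysis ran edgeR 4.0.16 (R 4.3.3), using filterByExpr, TMM, estimateDisp and the quasi-likelihood test of CD34hi against CD34lo, with Benjamini-Hochberg adjustment over 15219 genes and a threshold of 0.05. The common coefficient of variation was 19.7%. Log2 CPM used a prior count of 2. Each standard error was derived from the fold change and its F statistic. Between replicates of a population, chi-square over degrees of freedom was 23.9 or more. This sets separate mouse pools against counting noise alone, so nothing is read from it. The scripts were tested on simulated data.

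Same-numbered libraries came from the same pool of mice, and their deviations correlated across genes with Pearson's r of 0.279, 0.0844 and 0.243. Between CD34hi and CD34lo libraries of different pools r ran from -0.279 to 0.0681, so the value of pool 2 was only just above these.

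The members and lists were chosen with earlier results of these data known. Genes named beside them passed the threshold with a mean of at least 1 CPM, are copies of members, or did not pass with a mean of at least 5 CPM. The alternatives were limma-voom (limma 3.58.1), DESeq2 1.42.0, RLE and upper-quartile normalization, other filters, the mouse pool as a block, each pool or library left out, calls limited to log2 fold changes beyond 1 in size, and copies added together. Protein sequences were not analysed here, and single values of some genes are not reported here.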

Additional observations from a re-analysis of the deposited data

How the results depend on the processing

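The log2 fold changes of the 9 members kept their sign in all 162 comparisons with 18 alternatives, and each moved by less than the SD between pools. That SD comes from the same pools, so leaving a pool out could hardly move a value beyond it. Nothing is read from the size of these moves. Those of *C1ra*, *C1s1*, *C4b* and *Serping1* varied most in proportion, over 0.06 to 0.43, 0.08 to 0.37, 0.75 to 1.81 and 0.35 to 0.82. With the replicate block, the number of called complement genes outside the members was 16 in place of 14, and of all genes 6161 in place of 5411. Called complement genes fell to 9, with 2 higher in CD34hi, under a minimum of 10 counts in every library, which tests fewer genes, and 2 were higher in CD34hi with copies added together, which removes *C4a* and *Cd55b* as separate genes. Leaving out a pool or a library gave between 10 and 14, with 2 to 4 higher in CD34hi and 8 to 10 higher in CD34lo. Over all genes a minimum absolute log2 fold change of 1 left 2986 (1164 higher in CD34hi, 1822 in CD34lo), and leaving out a pool or library gave 3468 to 5236 (1608 to 2456 and 1860 to 2780). Of 366 comparisons for 21 other named complement genes, 320 kept direction and side of the threshold, 29 lost it, 12 gained it and 5 reversed. The reversals were *Cfp* (0.037 without pool 1, 0.018 without CD34hi pool 1; range on leaving out -0.18 to 0.037) and *Csmd1* (0.34 without pool 2, 0.13 without CD34hi pool 1, 0.21 without CD34lo pool 2; range -0.74 to 0.34), and the cause was not tested. Genes under the floor of 3 counts are limited by depth.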
